A study of Homo sapiens with 4 samples.

Results

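The KZFP cluster at 19q13.31 is a tandem array of zinc finger genes on the long arm of chromosome 19, taken here as every CpG between positions 44300000 and 45000000 of hg19. The window holds 7105 of the 27710999 CpGs read on the autosomes and X, spread over 140 tiles of 5 kb, and its members were set by position, in a region picked with earlier results of these data known. Methylation was read by EM-seq (enzymatic methyl sequencing). Here methylated cytosines are protected by enzymes and the others deaminated, so that a methylated CpG is read as C and an unmethylated CpG as T. There were 4 libraries of HEK293T cells, a human embryonic kidney line. WT 1 and WT 2 were from cells labelled wild type, and whether these had also been selected or cloned is not stated for these libraries. ZNF274KO 1 and ZNF274KO 2 were from cells in which ZNF274 had been deleted with a pair of CRISPR-Cas9 guides and which had been selected with puromycin and sorted as single cells. Under treatment the labels name only the assay in both groups. The sources do not say whether the replicates of a genotype were separate clones, cultures or aliquots, so the p-values below measure only the spread between these libraries, and effects of a single clone cannot be told apart from effects of the deletion.

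KRAB zinc finger proteins (KZFPs) bind DNA through an array of C2H2 zinc fingers, most of which is encoded in the last coding exon of each gene, and recruit TRIM28 and H3K9 methyltransferases through their KRAB domain. ZNF274 is a KZFP that binds the finger-encoding 3′ ends of other KZFP genes and helps to keep them in H3K9me3 heterochromatin. In most cells DNA methylation is high over the bodies of transcribed genes and absent from CpG-rich promoters, while silent late-replicating regions of cultured cells are often only partially methylated.

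The annotation (GENCODE on GRCh37) places 23 protein-coding genes in the window. These are LYPD5, which encodes a GPI-anchored protein of the LY6 family, 20 KZFP genes, and the unnamed readthrough genes ENSG00000267022, which runs across the body of ZNF222 and on to ZNF284, and ENSG00000267173, which spans part of ZNF112 and all of ZNF285 and shares the start of ZNF285. The 20 KZFP genes, in order along the chromosome, are ZNF283, ZNF404, ZNF45, ZNF221, ZNF155, ZNF230, ZNF222, ZNF223, ZNF284, ZNF224, ZNF225, ZNF234, ZNF226, ZNF227, ZNF235, ZNF233, ZNF112, ZNF285, ZNF229 and ZNF180. The letters of their last coding exons show what kind of gene family this is. The exon made up between 82.2% (ZNF222) and 92.0% (ZNF285) of the coding length. The linker between adjacent fingers, whose codons read GGNGANAANCCNTA on the coding strand, was found between 1 (ZNF222) and 15 (ZNF45) times per exon without mismatch. Searched on both strands, the linker occurred at least once in 25 of the 140 tiles of the cluster (17.9%), against 0.679% of the 563523 tiles tested across the autosomes and X. The stretches shown next are the 300 bases with most linkers in the last coding exons of ZNF229 (chr19:44932481-44932780, minus strand, 4 linkers) and ZNF404 (chr19:44376764-44377063, minus strand, 2 linkers), with the linkers in capitals. They are printed because these were the exons whose methylation passed the test below, and all such coordinates are hg19.
ZNF229 last coding exon: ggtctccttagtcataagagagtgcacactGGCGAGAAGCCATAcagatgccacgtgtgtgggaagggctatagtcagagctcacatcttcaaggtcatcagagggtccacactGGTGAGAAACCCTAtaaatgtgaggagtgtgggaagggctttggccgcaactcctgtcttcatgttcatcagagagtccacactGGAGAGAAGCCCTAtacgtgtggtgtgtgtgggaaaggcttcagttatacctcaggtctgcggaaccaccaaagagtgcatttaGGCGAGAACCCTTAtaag
ZNF404 last coding exon: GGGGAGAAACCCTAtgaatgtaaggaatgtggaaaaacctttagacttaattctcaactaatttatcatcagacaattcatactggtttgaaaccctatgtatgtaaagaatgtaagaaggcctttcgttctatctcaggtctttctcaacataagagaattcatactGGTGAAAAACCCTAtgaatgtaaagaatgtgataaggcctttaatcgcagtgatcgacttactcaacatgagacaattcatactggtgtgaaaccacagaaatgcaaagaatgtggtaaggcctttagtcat

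To show how CpGs are spread at starts that differ in density, stretches are printed of the promoter with the largest rise (ZNF404, chr19:44388117-44388416, minus strand), the promoter with the largest fall (ZNF155, chr19:44488040-44488339, plus strand) and the 300 bases with most CpGs in the tile with the largest fall (ZNF227, chr19:44716346-44716645, plus strand) with each CpG in capitals. Neither fall passed the test, and in neither case did it lie in the stretch printed, as the values after the sequences show. The promoter stretches are the 300 bases before the start of the gene's principal transcript.
ZNF404 promoter: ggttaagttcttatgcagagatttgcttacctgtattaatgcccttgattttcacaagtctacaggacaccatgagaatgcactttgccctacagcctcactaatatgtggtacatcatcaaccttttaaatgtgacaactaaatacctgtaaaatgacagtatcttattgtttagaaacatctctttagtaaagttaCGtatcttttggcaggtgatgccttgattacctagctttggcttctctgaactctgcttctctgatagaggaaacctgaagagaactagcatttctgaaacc
ZNF155 promoter: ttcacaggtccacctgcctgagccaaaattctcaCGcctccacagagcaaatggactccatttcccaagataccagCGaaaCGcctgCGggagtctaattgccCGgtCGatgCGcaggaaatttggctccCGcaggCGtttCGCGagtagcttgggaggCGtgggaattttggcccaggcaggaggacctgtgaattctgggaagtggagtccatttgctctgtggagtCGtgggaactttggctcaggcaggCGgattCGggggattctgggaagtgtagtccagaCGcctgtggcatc
ZNF227 tile 44715001: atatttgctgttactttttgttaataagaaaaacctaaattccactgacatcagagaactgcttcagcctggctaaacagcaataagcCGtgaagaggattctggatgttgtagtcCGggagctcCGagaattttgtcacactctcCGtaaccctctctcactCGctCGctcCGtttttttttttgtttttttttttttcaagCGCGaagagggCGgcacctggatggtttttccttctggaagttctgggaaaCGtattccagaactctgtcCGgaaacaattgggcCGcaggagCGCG
The ZNF404 stretch holds a single CpG, the ZNF155 stretch 16 and the ZNF227 stretch 15. At the ZNF404 CpG, 0 of 8 reads were methylated in WT 1 and 0 of 11 in WT 2, which allows levels of up to 37.5% and 27.3%. In each ZNF274KO library the same CpG was at 88.9% of 9 reads. The 15 CpGs just before the principal start of ZNF227 had no methylated read in any library. This would allow at most 4.41% in the shallowest if its counts were independent. The ZNF155 stretch was low in every library and higher in both ZNF274KO libraries, at 3.23% and 1.96% in WT and 13.25% and 4.35% in ZNF274KO. These limits cover counting error only, since reads without molecular identifiers are not independent molecules. A read is also counted once for each CpG that it covers, so a limit over several CpGs is too narrow.

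Counting a read once for each CpG that it covers, the libraries held 241598512 to 295114493 reads over CpGs on these chromosomes. Median depth was 8 to 10, and genome-wide levels lay between 58.4% and 60.4%. The body of ZNF274 itself, with 501 CpGs, had 5158 and 4274 reads in WT and 0 and 14 in ZNF274KO, as the genotype labels call for. Read depth also moved with the genotype: the mean depth per CpG of the cluster was 10.2 and 8.48 in WT and 7.26 and 6.81 in ZNF274KO. The cluster's share of these reads was 0.805 times as high in ZNF274KO, and that of chromosome 19 as a whole was 0.894 times. Mean depth was similarly lower in the 500 kb on each side (10.3 and 8.97 against 6.93 and 6.86), where methylation hardly differed, as given next. The part of depth in the results below was not tested.

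Methylation of the cluster was higher in ZNF274KO. The level over all reads of the window was 50.6% in WT 1 and 51.0% in WT 2, and 63.0% in ZNF274KO 1 and 58.2% in ZNF274KO 2. The means were 50.8% ± 0.296 (SD, n = 2) and 60.6% ± 3.37 (SD, n = 2), a difference of 9.77 points. The groups did not overlap, and the WT libraries were much closer to each other than the ZNF274KO libraries were. With 2 libraries against 2, the two-sided exact permutation test cannot go below p = 0.333, which is the value it gave. In the adjoining 500 kb on both sides (17791 CpGs) the level was 68.0% and 67.0% in WT and 69.6% and 66.6% in ZNF274KO, and these groups overlapped. The level of the cluster minus that of its flanks was -16.7 points in WT and -7.503 points in ZNF274KO, a difference of 9.18 points (exact permutation p = 0.333, the smallest possible).

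Other KZFP clusters of the chromosome were also more methylated in ZNF274KO, by amounts that differed. These clusters were taken as wider windows with all their sequence, at 20 to 24 Mb (19p12), 53 to 54 Mb (19q13.41) and 37 to 38 Mb (19q13.12). The rise was 33.9 points at 19p12 (from a WT mean of 25.7%), 19.6 points at 19q13.41 (from 40.4%) and 7.18 points at 19q13.12 (from 63.8%). Taken within each library, the difference at 19q13.31 departed from that at 19p12 by -24.1 points, from that at 19q13.41 by -9.82 points and from that at 19q13.12 by 2.59 points. In each of these 3 comparisons the ZNF274KO libraries lay on a single side of the WT libraries, and the exact permutation p was 0.333 before and after adjustment over the 3.

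**Figure D1:**
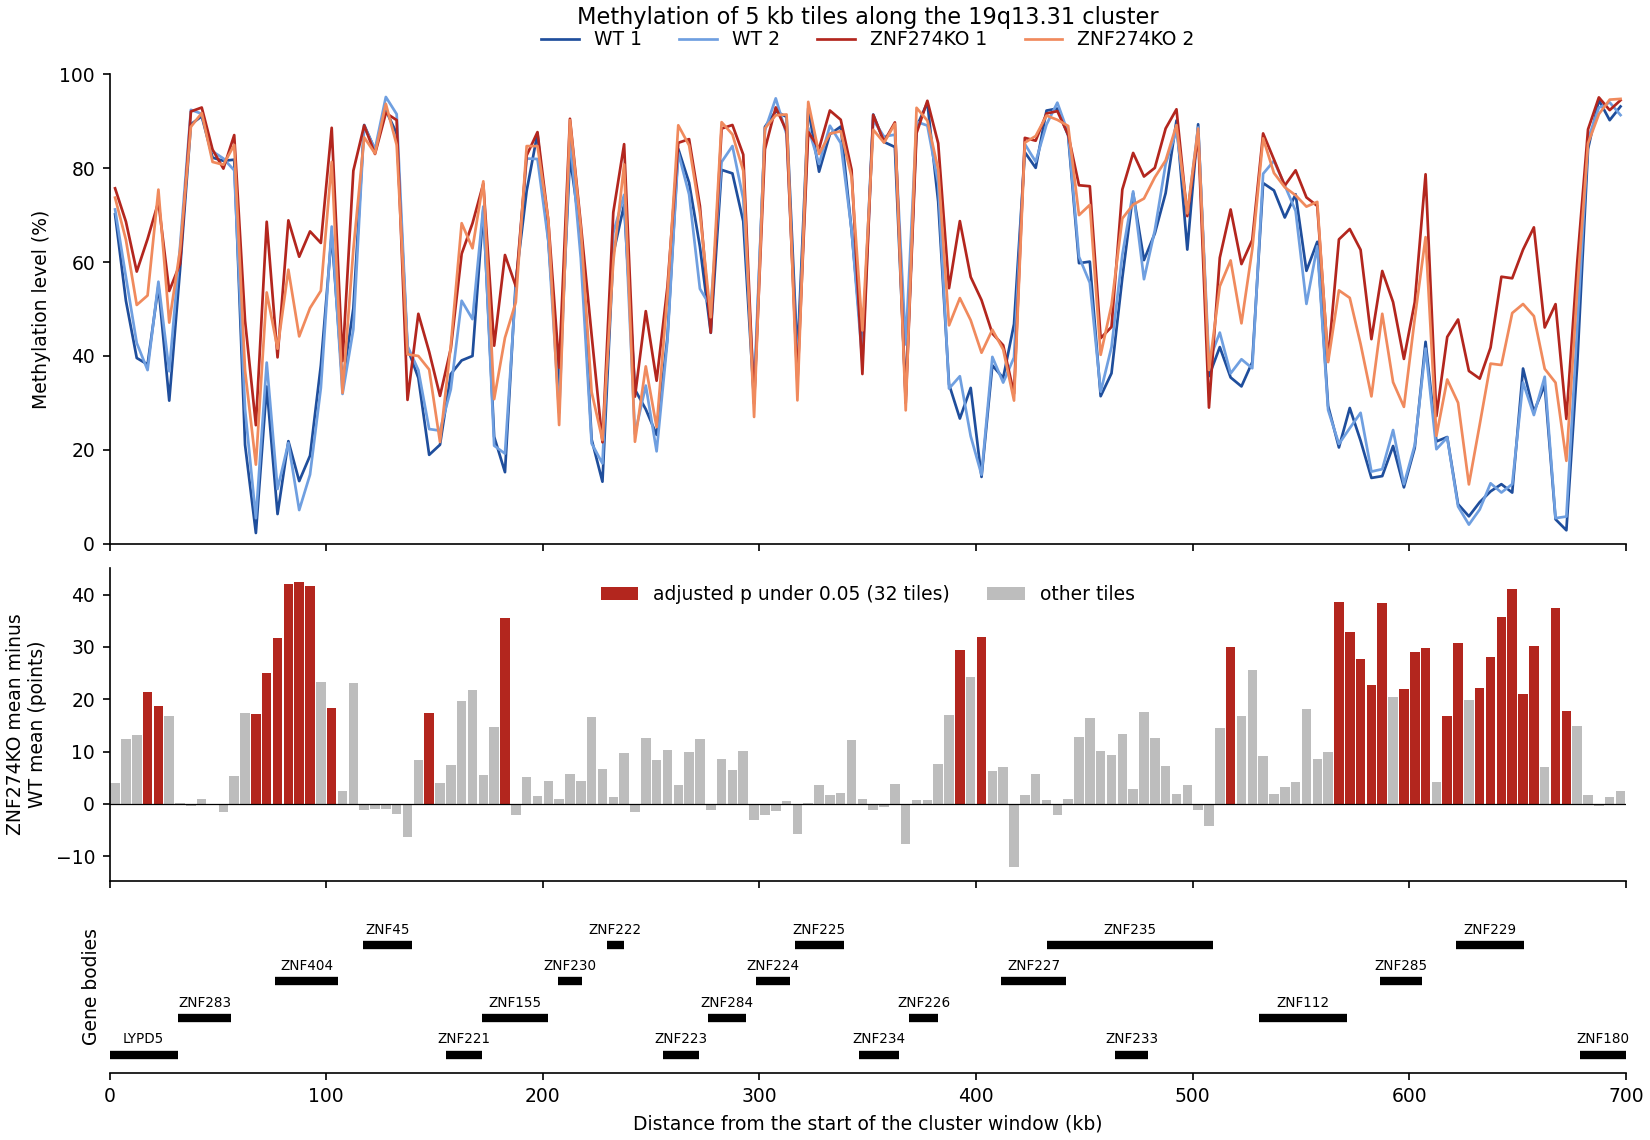
Methylation level of each 5 kb tile in the 4 libraries (top), the difference between the ZNF274KO and WT means in percentage points with called tiles in red (middle), and the named gene bodies (bottom), against distance from the start of the window in kb. Most of the 32 called tiles lie over ZNF404 and from the 5′ end of ZNF112 to ZNF229, where the WT lines run low. The others lie over LYPD5 and ZNF155 and between genes. The lines of all libraries meet where the level is near 90%.

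The rise was uneven along the window. Of the 140 tiles, 32 were called higher in ZNF274KO by edgeR's quasi-likelihood test on methylated and unmethylated read counts (adjusted p under 0.05, Benjamini-Hochberg over all tiles), where 0.473% of all tested tiles were called higher. No tile of the cluster was called lower (0.0131% of all tested tiles). At an unadjusted edgeR p under 0.05 there were 77 of the 140 tiles, 1 of them lower, against 36719 of all 563523 tested tiles. The ZNF274KO pair lay wholly above the WT pair in 94 tiles, against 13.5% of all tested tiles, and wholly below it in 9, against 22.3%. In the called tiles the mean level was 21.5% and 22.4% in WT 1 and WT 2, and 56.4% and 45.3% in ZNF274KO 1 and ZNF274KO 2. Their rises ran from 16.8 to 42.4 points with a median of 29.5, against a median difference of 8.33 points over the 140 tiles and -0.58 points over all tested tiles. ZNF274KO 1 exceeded ZNF274KO 2 in 30 of the 32 called tiles and in 109 of all 140. Without ZNF274KO 1 there were 19 called tiles, and limma called 19.

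The called tiles formed 13 runs, of which 3 had at least 5 consecutive tiles. The first of these runs, chr19:44365001-44395000, covered part of the sequence between ZNF283 and ZNF404 and then ZNF404 from its 3′ end past the start of its principal transcript. Its tiles averaged 16.3% in WT and 49.6% in ZNF274KO. The second, chr19:44865001-44890000, ran from the 5′ end of ZNF112 to the 3′ part of ZNF285, with averages of 20.5% and 52.5%. The third, chr19:44930001-44960000, covered most of ZNF229 and the sequence before its start, with averages of 17.9% and 47.6%. These runs held 17 of the 32 called tiles. Of the others, a single tile lay inside the annotated ZNF155, before the start of its principal transcript at 44488340 (rise of 35.5 points). The ZNF155 tiles from that start to its 3′ end differed by -2.07 to 5.11 points. Further single tiles lay between genes at 44690001, 44700001 and 44815001 (rises of 29.3, 31.8 and 29.9 points).

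The 5 called tiles with the largest rises (all with at least 20 CpGs) lay over ZNF404, ZNF229 and the 5′ end of ZNF112. The tile at 44385001, over ZNF404, was at 13.35% and 7.19% in WT and 61.1% and 44.2% in ZNF274KO (rise of 42.4 points, log2 odds ratio 3.27, edgeR adjusted p = 0.000183). Its neighbour at 44380001 was at 21.9% and 21.5% in WT and 68.9% and 58.4% in ZNF274KO (42.0 points, 2.66, edgeR adjusted p = 0.000371). On the other side, the tile at 44390001 went from 18.8% and 14.7% to 66.5% and 50.2% (41.6 points, 2.81, edgeR adjusted p = 0.000172). In each of the 3 ZNF404 tiles the lower ZNF274KO library was still more than 30 points above the higher WT library. The tile at 44945001, in ZNF229, was at 10.9% and 12.7% in WT and 56.5% and 49.1% in ZNF274KO (41.0 points, 3.08, edgeR adjusted p = 7.28e-06). The tile at 44865001, at the 5′ end of ZNF112, was at 20.5% and 21.3% in WT and 64.8% and 53.98% in ZNF274KO (38.5 points, 2.47, edgeR adjusted p = 0.000712). All 5 kept their call with CpGs in repeated sequence left out. They also did when any 1 library was left out, where the lone library of its group is assumed to vary like the other group.

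The tiles with the largest negative differences were not called, and each of the 5 held the start of its gene's principal transcript. They lay over ZNF227 (44715001, 46.8% and 39.7% in WT against 32% and 30.5%, -12.0 points, edgeR adjusted p = 0.194), ZNF226 (44665001, -7.70 points), ZNF45 (44435001, -6.40 points), ZNF225 (44615001, -5.84 points) and ZNF235 (44805001, -4.30 points). The ZNF227 tile was called lower with the replicate number as a block (edgeR adjusted p = 0.0256) and with the numbers crossed (edgeR adjusted p = 0.0222). Over all tested tiles these 2 settings called 610 and 920 lower, against 74 in the main fit. The ZNF227 difference was -15.5 points without WT 2 and -8.43 points without WT 1. The others moved with single libraries. The ZNF226 difference was -2.15 points without WT 2 and -13.3 points without WT 1. The ZNF45 difference was -1.54 points without ZNF274KO 1 and -11.3 points without ZNF274KO 2, and that of ZNF235 was -0.292 and -8.30 points. Reads of the Watson and Crick strands alone gave -7.27 and -17.05 points for ZNF227, -13.7 and -1.63 points for ZNF226, and -10.9 and 1.64 points for ZNF235, whose difference thus turned positive. For ZNF45 the difference was -3.26 points on the Crick strand and -2.45 points without repeated sequence, and for ZNF225 it was -3.35 points on the Watson strand.

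The tiles that were low in WT differed most, and those that were high in WT differed little. To describe this, tiles were sorted by their level in WT 1 and the ZNF274KO mean was set against WT 2, so that the differences use no WT library on both sides. The counts of called tiles do, since the calls include WT 1. Of the 19 tiles under 20% in WT 1, all 19 lay higher in ZNF274KO, with a median difference of 28.9 points, and 17 were among the called tiles. The 44 tiles from 20% to 40% had a median difference of 13.39 points, with 12 called. In the 16 tiles from 40% to 60% the median was 10.7 points and 2 were called, and in the 27 tiles from 60% to 80% it was 6.01 points and 1 was called. The 34 tiles at 80% or more differed by a median of 0.589 points, between -3.91 and 6.45, and none was called. Tiles that are high in WT have little room to rise in points, and how much of the pattern this limit sets was not tested.

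**Figure D2:**
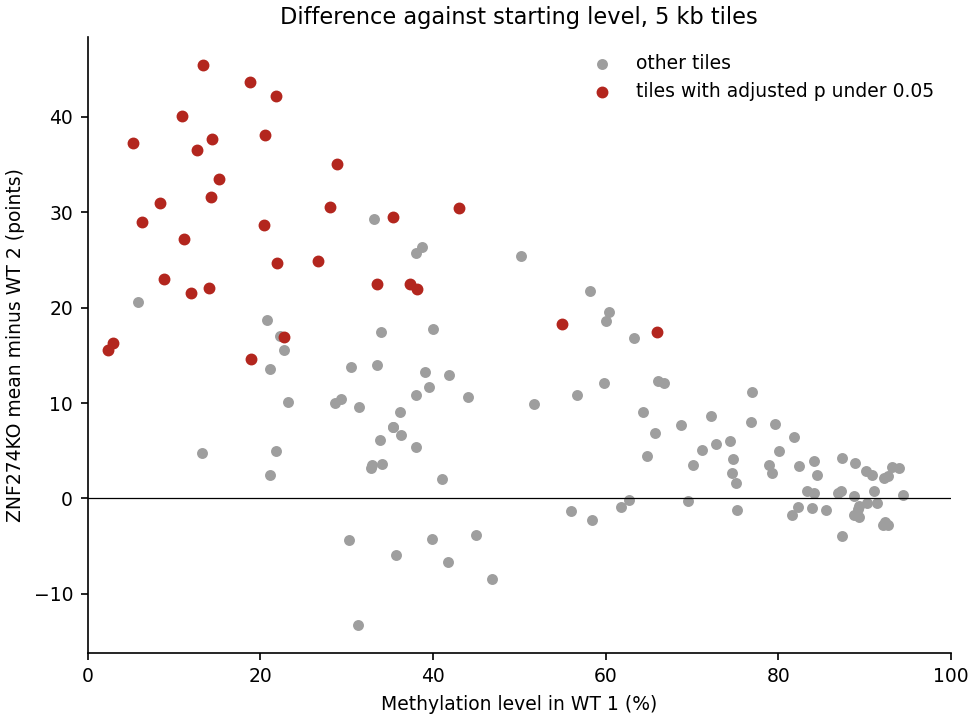
Each point is a 5 kb tile of the cluster, placed by its level in WT 1 (%, horizontal) and by the ZNF274KO mean minus WT 2 (percentage points, vertical), with called tiles in red. The differences fall from a median of 28.9 points below 20% to 0.589 points at 80% and above.

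At single CpGs, 4284 of the window had at least 5 reads in every library. Of these, 38.4% and 38.03% were at or below 20% methylation in WT 1 and WT 2, and 23.02% and 27.4% in ZNF274KO 1 and ZNF274KO 2. The share at or above 80% was 38.6% and 40.03% in WT, and 51.0% and 45.6% in ZNF274KO. In the called tiles, which were chosen for a higher level in these same reads, 932 of these CpGs are given as a description only. The share at or below 20% among them was 65.7% and 64.9% in WT and 20.4% and 31.5% in ZNF274KO, and the share between 20% and 80% was 24.6% and 25.9% in WT and 43.8% and 47.5% in ZNF274KO.

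The calls were not confined to protein-coding genes. Among tiles, 18 of 105 that overlap a KZFP gene were called and 14 of 35 that do not, with median differences of 5.11 and 17.0 points. Of the 24 tiles outside any protein-coding gene, 10 were called. Tiles with at least 3 linkers were mostly high in both genotypes. These 18 tiles had a median level of 79.8% in WT and 84.6% in ZNF274KO. Among them 2 were called, those with the finger exons of ZNF404 and ZNF229. The 122 other tiles had medians of 42.8% and 60.8% with 30 called. They include the finger exons of ZNF230, ZNF222, ZNF223 and ZNF284, which hold 1 or 2 linkers each.

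On a coarser scale, 3 of the 7 bins of 100 kb were called higher, against 0.515% of all tested bins. These were the first bin (LYPD5, ZNF283 and part of ZNF404), which went from 50.4% and 52.6% to 67.5% and 62.6% (edgeR adjusted p = 0.0304), the sixth (ZNF112 and parts of ZNF235 and ZNF285), from 40.5% and 42.2% to 59.8% and 54.5% (edgeR adjusted p = 0.0299), and the seventh (ZNF229 and parts of ZNF285 and ZNF180), from 33.5% and 33.5% to 57.3% and 47.9% (edgeR adjusted p = 0.0120). The 4 bins between rose by 2.89 to 6.33 points in the means and were not called, although the ZNF274KO pair lay wholly above the WT pair in all 7 bins (8.86% of all tested bins, with 28.5% wholly below). Without ZNF274KO 1 no bin was called, without ZNF274KO 2 there was 1, and without repeated sequence only the seventh was. The sixth bin also lost its call with limma (limma adjusted p = 0.0566) and with reads of the Watson strand alone (edgeR adjusted p = 0.0529), and the first with those of the Crick strand alone (edgeR adjusted p = 0.0526).

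**Figure D3:**
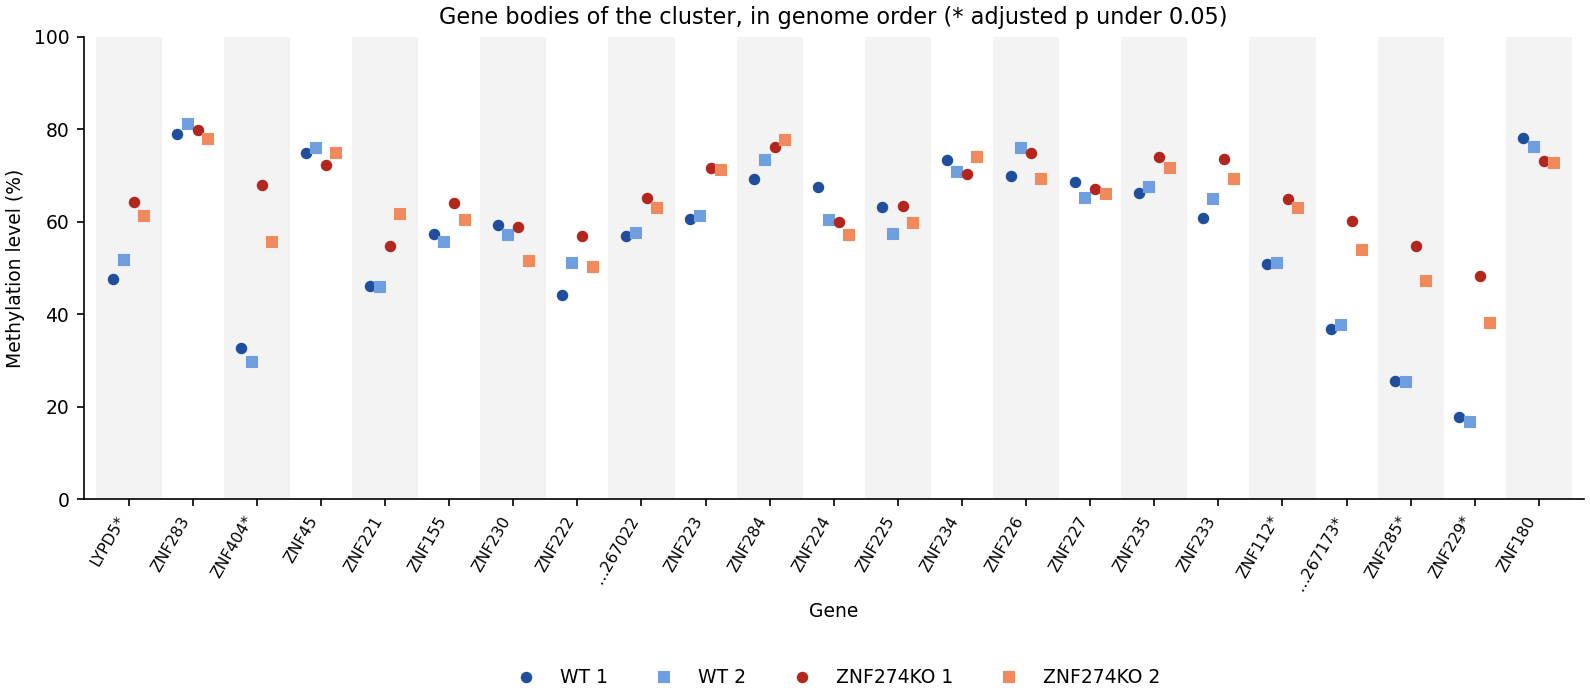
Methylation level (%) of the 23 gene bodies in genome order, with a point for each library and an asterisk at the 6 called bodies. Labels that begin with … are the readthrough genes ENSG00000267022 (left) and ENSG00000267173, and the largest gaps between ZNF274KO and WT points are at ZNF404, ZNF285 and ZNF229.

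Among gene bodies, 6 of 23 were called higher and none lower, where 0.888% of all tested bodies were called higher and 0.0303% lower. These were LYPD5, ZNF404, ZNF112, ENSG00000267173, ZNF285 and ZNF229. ZNF404 (chr19:44376517-44405537, 196 CpGs) was at 32.6% and 29.6% in WT and 68.0% and 55.6% in ZNF274KO, a rise of 30.7 points (edgeR adjusted p = 0.000279). ZNF229 (chr19:44921685-44952766, 291 CpGs) had the lowest body in WT, 17.8% and 16.7%, and reached 48.2% and 38.1%, a rise of 25.9 points (edgeR adjusted p = 4.6e-05). ZNF285 (chr19:44886460-44905774, 161 CpGs) went from 25.6% and 25.3% to 54.7% and 47.2%, a rise of 25.6 points (edgeR adjusted p = 0.000351). These were the 3 lowest KZFP bodies of the cluster in WT, and ZNF229 and ZNF285 were still the lowest in ZNF274KO, with means of 43.1% and 51.0%.

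The body of ENSG00000267173 (19.8 points, edgeR adjusted p = 0.000275) contains ZNF285 and part of ZNF112, so its call is not separate evidence. ZNF112 (chr19:44830708-44871377) was at 50.9% and 51.1% in WT and 65.0% and 63.0% in ZNF274KO (13.0 points, edgeR adjusted p = 0.0191). Its called tiles, at 44865001 and 44870001 (38.5 and 32.9 points), lie before the start of its principal transcript at 44860832, and the 7 tiles from there to its 3′ end differed by 1.98 to 18.2 points with none called. LYPD5 (chr19:44290026-44331358), whose 3′ end lies outside the window and which is not a zinc finger gene, was at 47.6% and 51.7% in WT and 64.2% and 61.3% in ZNF274KO (13.0 points, edgeR adjusted p = 0.00911). Its called tiles, at 44315001 and 44320001 (21.3 and 18.8 points), lie before the start of its principal transcript at 44306599. The tile at 44300001, after that start, differed by 4.02 points and was not called. For LYPD5 and ZNF112 the call was lost without either ZNF274KO library, with limma and with reads of the Crick strand alone, and for ZNF112 also with those of the Watson strand alone.

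Without regard to the test, 13 bodies had the ZNF274KO pair wholly above the WT pair and 3 had it wholly below, against 9.09% and 30.6% of all tested bodies. The bodies of the other 16 KZFP genes were not called. Their WT means lay between 45.9% (ZNF221) and 80.04% (ZNF283), so all of them began above the 3 genes with the largest rises. ZNF221 was at 46.0% and 45.8% in WT and 54.7% and 61.6% in ZNF274KO (12.3 points, edgeR adjusted p = 0.207). ZNF223 was at 60.6% and 61.2% in WT and 71.6% and 71.1% in ZNF274KO (10.52 points, edgeR adjusted p = 0.127). ZNF224, known as a repressor of the aldolase A gene, had the largest negative difference, from 67.4% and 60.4% to 59.9% and 57.2%, where the WT libraries differed by more than the group means did. ZNF180, whose 5′ end lies outside the window, was at 78.1% and 76.1% in WT and 73.1% and 72.6% in ZNF274KO (edgeR adjusted p = 0.702), while its tiles inside the window differed by -0.40 to 14.9 points.

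The study summarises a gene body by the 75th percentile of its CpG levels, averaged over replicates. By that summary, taken here over CpGs with at least 3 reads, the median difference over the 20 KZFP bodies was 2.92 points, with 14 bodies higher, 3 lower and 3 equal. Without WT 1 or without WT 2 the median was 0, with 8 higher and 4 lower, and without ZNF274KO 1 or without ZNF274KO 2 it was 4.77 points, with 18 higher and 0 lower. These settings set a single library against a mean over replicates. Whichever library was left out, the median percentile of its group rose to 100%, from 95.2% in WT or 95.3% in ZNF274KO. They thus cannot show how the summary depends on single libraries. With all libraries, the difference was largest for ZNF229 (18.8% in WT and 70.8% in ZNF274KO), ZNF285 (41.7% and 80.9%) and ZNF404 (69.0% and 88.7%). In all of the others but ZNF221 the 75th percentile was already at or above 90% in WT.

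**Figure D4:**
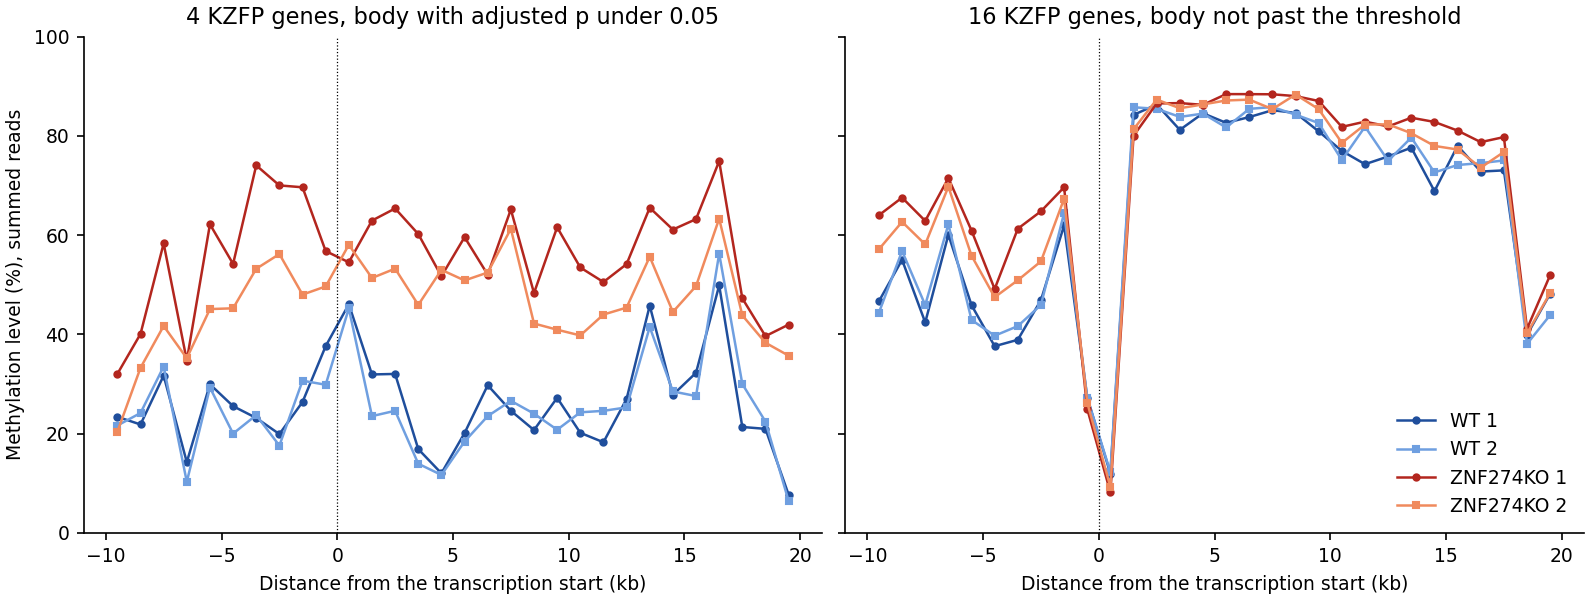
Methylation level (%) in 1 kb bins from 10 kb before to 20 kb after the start of the principal transcript, from reads summed over the 4 KZFP genes with called bodies (left) and over the other 16 (right), in each library. On the right all libraries share a dip at the start and a plateau after it, while on the left the pooled WT lines are lower after the start and the ZNF274KO lines lie above them nearly throughout.

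Around gene starts the KZFP genes of the cluster took on different shapes in WT. Over the 16 genes whose bodies were not called, the first 1 kb after the start was at 11.96% and 12.2% in WT and 8.14% and 9.25% in ZNF274KO. From 2 to 3 kb after the start the level was 86.3% and 85.5% in WT and 86.6% and 87.3% in ZNF274KO, a shape common among transcribed genes with CpG island promoters. Over the 4 genes with called bodies (ZNF404, ZNF112, ZNF285 and ZNF229) the pooled level from 2 to 3 kb was lower: 32.03% and 24.6% in WT and 65.4% and 53.3% in ZNF274KO. These 4 genes were not alike, since the tile at 44855001, inside ZNF112 after its start, was already at 64.3% and 63.4% in WT and at 71.96% and 72.8% in ZNF274KO. In the first 1 kb of the 4 genes the pooled level was 46.1% and 45.2% in WT and 54.5% and 58.1% in ZNF274KO. The 16 genes also had partially methylated sequence further upstream, where the level from 3 to 2 kb before the start was 46.9% and 45.9% in WT and 64.8% and 54.7% in ZNF274KO. These genes were grouped by their own measured bodies, so the profiles are a description.

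Promoters, taken as 1 kb on either side of the start, covered a wide range. Their WT means ran from 1.82% (ZNF224) to 55.2% (LYPD5). Of the 22 promoters tested, with the start of ZNF180 outside the window and the readthrough genes starting with ZNF222 and ZNF285, only that of ZNF404 was called higher and none lower, where 0.101% of all tested promoters were called higher and 0.0253% lower. It was at 1.92% and 2.34% in WT and 33.0% and 25.5% in ZNF274KO (27.1 points, edgeR adjusted p = 0.0148). This promoter held 11 CpGs, the fewest of the cluster, where the others held 22 to 82. Its call was lost with reads of either strand alone and with 500 bases on either side of the start. The start used, at 44388116, lies inside the annotated gene, whose 5′ end is at 44405537. The tile at 44405001, which holds that 5′ end, was not called. It was at 34.1% and 31.9% in WT and 38.9% and 32.1% in ZNF274KO. The promoters of ZNF285 (52.0% and 48.7% in WT, 81.6% and 70.1% in ZNF274KO) and ZNF229 (47.4% and 46.6% in WT, 74.5% and 62.5% in ZNF274KO) differed by 25.5 and 21.5 points but were not called (edgeR adjusted p = 0.148 and 0.310). Without WT 1, WT 2 or ZNF274KO 2 the count of called promoters was 4, 3 and 3, where the start that ZNF285 shares with ENSG00000267173 is among them and counts for both genes. With the replicate number as a block both ZNF285 and ZNF229 were called (edgeR adjusted p = 0.000847 and 0.0167), and with the numbers crossed ZNF285 was (edgeR adjusted p = 0.0238). Over all tested promoters the block called 89 higher and the crossed numbers 54, against 20 in the main fit. ZNF404, ZNF285 and ZNF229 thus had the largest positive differences at promoters as well as in bodies, and those of ZNF285 and ZNF229, with 72 and 61 CpGs, were already partially methylated in WT.

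None of the other promoters was called, and their differences ran from -10.4 points (ZNF155) to 8.64 points (LYPD5). ZNF155 had the largest negative difference, from 32.4% and 26.8% to 22.3% and 16.1% (edgeR adjusted p = 0.782). This difference was -20.04 points from reads of the Watson strand and -1.95 points from those of the Crick strand. The promoters of ZNF224, ZNF225 and ZNF226, all under 8% in WT, were lower in both ZNF274KO libraries, for example at 1.70% and 1.95% in WT and 0.540% and 1.01% in ZNF274KO for ZNF224, and none of them was called. Counting the shared start for each of its genes, at 6 promoters the ZNF274KO pair lay wholly above the WT pair (14.4% of all tested promoters) and at 6 wholly below it (20.3%).

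**Figure D5:**
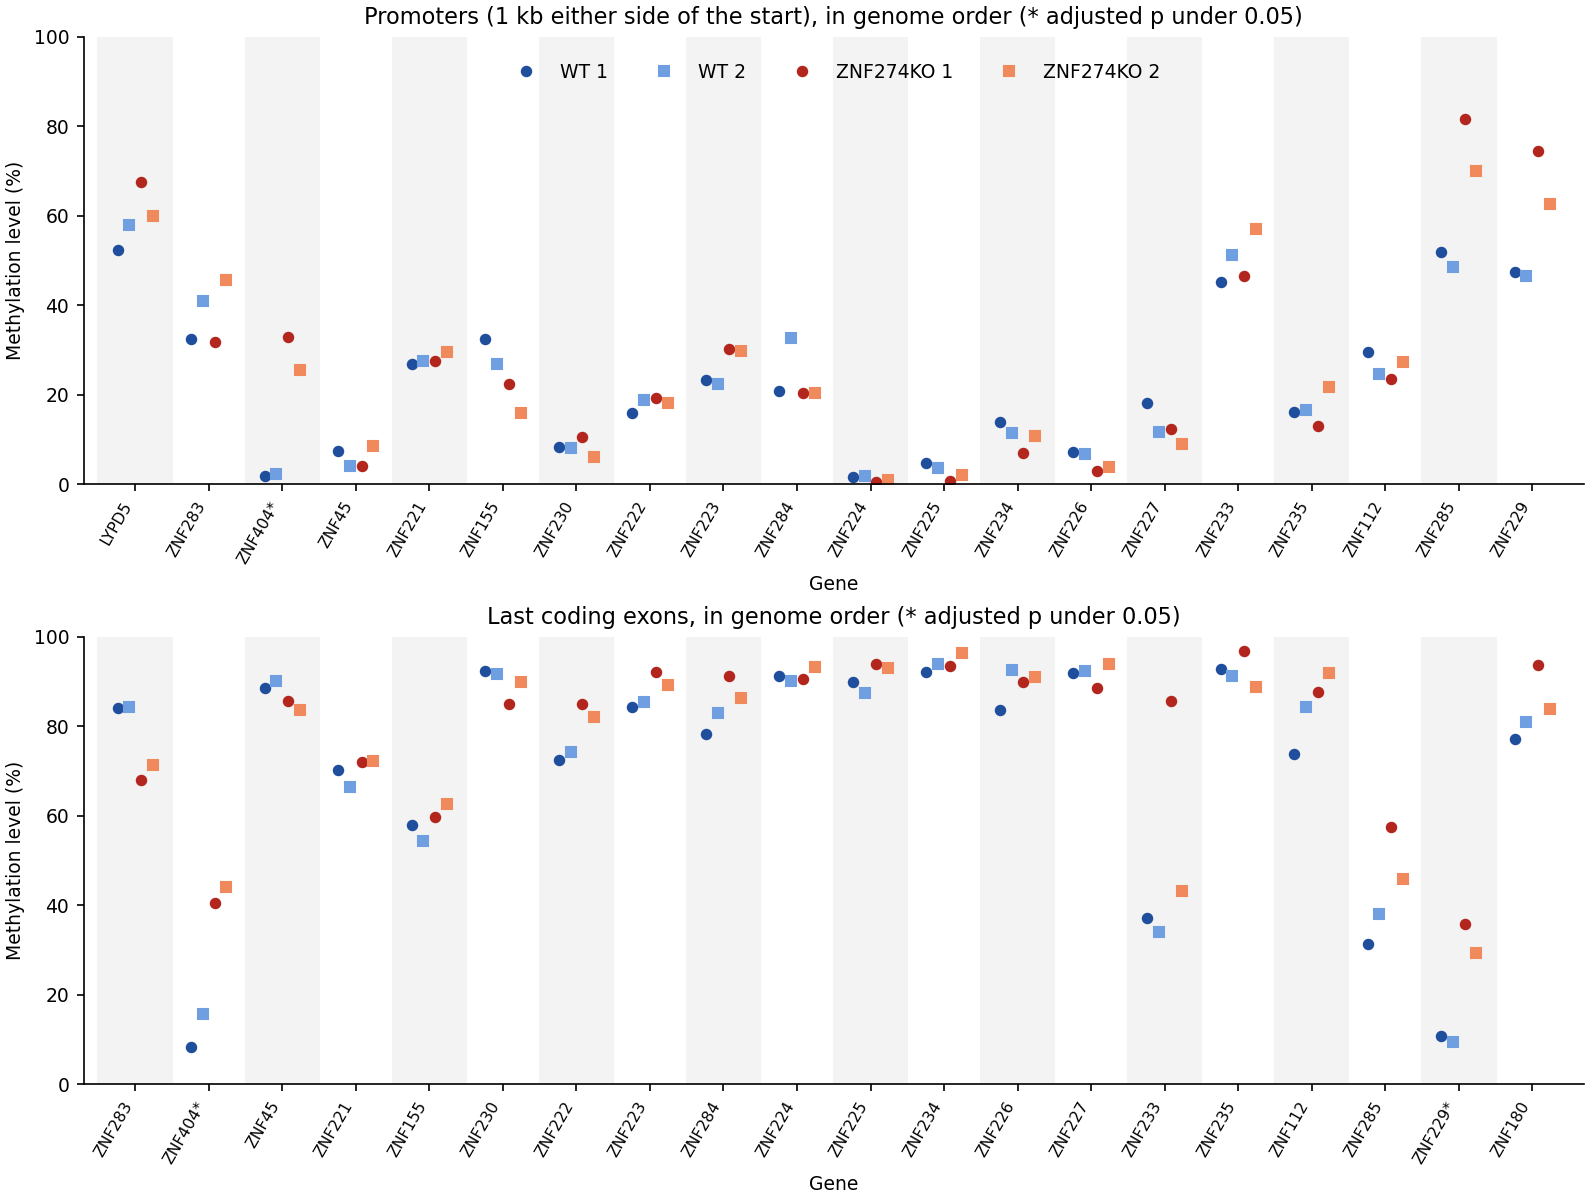
Methylation level (%) of promoters (top) and last coding exons (bottom) of the named genes in genome order, with a point for each library and an asterisk at called regions. ZNF404 is called in both panels, ZNF229 in the lower, and 9 of the 20 tested finger exons sit above 80% in every library.

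The last coding exons, which carry the finger arrays, covered a wide range of levels, and 9 of the 20 tested were above 80% in every library. The exons of LYPD5 and the readthrough genes had too few CpGs to test. Of 20 tested, all of KZFP genes, 2 were called higher and none lower, where 0.714% of all tested exons were called higher and 0.042% lower. The exon of ZNF404 (chr19:44376710-44378229, 12 CpGs, 3 linkers) was at 8.33% and 15.8% in WT and 40.6% and 44.1% in ZNF274KO (30.3 points, edgeR adjusted p = 0.0124). The exon of ZNF229 (chr19:44932481-44934717, 47 CpGs, 12 linkers) was at 10.9% and 9.55% in WT and 35.7% and 29.3% in ZNF274KO (22.3 points, edgeR adjusted p = 0.00255). Neither call held in every setting: both were lost with limma and without either ZNF274KO library, and that of ZNF404 also without WT 1 and with reads of the Watson strand alone. In the stretch of the ZNF229 exon printed above, the level was 18.2% and 25.5% in WT and 44.8% and 25.5% in ZNF274KO, so ZNF274KO 1 lay well above the WT libraries there and ZNF274KO 2 did not. In the ZNF404 stretch, with 3 CpGs and 25 to 42 reads, the groups overlapped, at 19.05% and 44% in WT and 39.4% and 53.1% in ZNF274KO.

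Other finger exons started higher. That of ZNF285 was at 31.3% and 37.97% in WT and 57.6% and 45.9% in ZNF274KO (17.1 points, edgeR adjusted p = 0.537). That of ZNF233 held 6 CpGs and was at 37.3% and 34.0% in WT, 85.7% in ZNF274KO 1 and 43.2% in ZNF274KO 2. ZNF283 had the largest negative difference, from 84.1% and 84.2% to 68.1% and 71.3% (edgeR adjusted p = 0.473). The exons of ZNF224, ZNF234, ZNF227 and ZNF235 were above 88% in all 4 libraries, for example at 92.1% and 93.8% in WT and 93.5% and 96.4% in ZNF274KO for ZNF234.

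Part of the cluster lies in sequence that is not single-copy. Of the 7105 CpGs, 2108 lay in 50-base stretches that, after conversion, also occur elsewhere in the genome, which leaves 70.3% in single-copy stretches. With the repeated CpGs left out, the difference between the group means of the cluster was 9.29 points, and 24 of the 32 called tiles kept their call.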

How the data were processed

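EM-seq libraries of HEK293T cells (2 WT and 2 ZNF274KO) were analysed from read counts. Per the authors' methods, 100-bp paired reads were mapped to hg19 with rDNA added, by Msuite2 with HISAT2. The deposited files hold, for each CpG and strand, counts of C (methylated) and T (unmethylated) reads. Replicates were not pooled, and read filters are not given in the sources used here. All 27710999 CpGs of the autosomes and X fall on CG in GRCh37, which supplied sequences, with GENCODE release 44 lifted to it.

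Groups follow the genotype label. Levels are C over C plus T of all reads in a region, where a read counts once for each CpG that it covers. Regions with at least 5 CpGs, and 20 reads in every library, on the autosomes and X (563523 tiles of 5 kb, 28518 bins of 100 kb, 19829 gene bodies, 19758 promoters, 9530 last coding exons) were tested with edgeR 4.0.16 (glmQLFit and glmQLFTest, R 4.3.3, common dispersion), with a coefficient per library and methylation log-odds per group, Benjamini-Hochberg adjustment and a threshold of 0.05. Single values were compared by exact permutation (scipy 1.17.1). Alternatives were limma 3.58.1 (pseudocount 1), other read minimums, tile and promoter sizes, strands, centring, a replicate block, left-out CpGs and left-out libraries. Replicate numbers were checked for pairing, and same-numbered libraries did not deviate together (r = -0.108 over all tiles and 0.097 over those of the cluster).

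Every protein-coding gene of the window is accounted for, with full statistics for up to 5 called regions of each kind with the largest rises and falls, and the largest differences as values where fewer were called. The window was set by position, and it, the gene lists and the tests were chosen with earlier results of these data known. Sequence of the tiles with the largest rises is not reported here.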

Additional observations from a re-analysis of the deposited data

How the results depend on the processing

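With 2 libraries a group and a median depth of 8 to 10, small regions rest on few reads, and ZNF274KO 1 carried more of the rise than ZNF274KO 2. The difference in level of the cluster kept its direction under every alternative run, as did the comparisons with flanks and other clusters. For the cluster it was 9.29 to 9.90 points over strands, depth limits, repeated sequence and weighting, and 10.3 with centring. Over replicate numbers and left-out libraries it was 7.18 to 12.4 points. All these changes were smaller than the SD between ZNF274KO libraries. Leaving out a ZNF274KO library cannot exceed that SD when a group has 2 libraries, so those settings do not test stability. Repeated sequence was left out of the cluster only, not of the flanks or other clusters. The count of 32 called tiles was 19 with limma, 63 of 342 with 2 kb tiles, 18 of 70 with 10 kb tiles, and 19 to 43 with a library left out. Bins went from 3 to 1 without repeated sequence, to 2 with limma or with either strand alone, and to 0 to 3 with a library left out. Promoters went from 1 to 4 with the replicate block, 0 with either strand alone, 0 with 500 bases on either side of the start and 1 to 4 with a library left out, where the start shared by ZNF285 and ENSG00000267173 counts for both genes in each count above 1. With a library left out, the lone library of its group is assumed to vary like the other group. Last coding exons went from 2 to 0 with limma, 1 (ZNF229) with the Watson strand and 0 to 2 with a library left out. The replicate block gave 41 tiles called higher and 1 lower, 3 bins, 6 bodies and 2 last coding exons. A crossed replicate block was added after the data were seen. It called 52 tiles higher and 1 lower, and 3 bins, 6 bodies, 3 promoters and 2 last coding exons higher. Over all tested tiles these blocks called 4180 and 5720 higher and 610 and 920 lower, against 2667 and 74 in the main fit. The median 75th percentile difference of 2.92 points was 2.87 for the median over CpGs, 2.61 with at least 5 reads, and 0 to 4.77 with a library left out. The last range sets a single library against a mean over replicates, which by itself shifts the percentile. Reads of the Crick strand reversed the uncalled ZNF235 tile to 1.64 points. Of 375 values of 25 named regions under alternatives, 335 kept direction and stayed called or uncalled, 29 lost a call, 10 gained one and 1 reversed. The other read minimums are among these alternatives and leave the reads of a named region unchanged, so they could hardly alter its result. Unless stated, the cause was not tested.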
